A study of Canis lupus familiaris with 45 samples.

Results

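The genes described are those of the proteasome, chosen as every gene whose array symbol starts with PSMA, PSMB, PSMC, PSMD or PSME. The platform table gave 40 such genes through 80 probe sets with a single symbol. Each gene was read from its probe set with the highest mean over all 45 arrays, and was kept when that probe set stood above log2 4 on at least 4 arrays. This kept 37 of the 9113 genes measured on the array, and all 37 stood above 4 on 45 of 45 arrays. The 3 genes not kept were PSMA8 (the testis alpha subunit, highest value 2.75), PSMB11 (the thymus catalytic subunit, 1.74) and PSMC3IP (a meiotic recombination protein that carries the prefix only, 3.75), each above 4 on 0 arrays. A further 8 probe sets matched a PSM symbol together with other symbols and were not used.

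The proteasome is the barrel-shaped protease that degrades proteins tagged with ubiquitin. Its core is built of alpha rings, which gate the entry, and beta rings, which hold the catalytic subunits PSMB5, PSMB6 and PSMB7. A regulatory particle of PSMC ATPases and PSMD subunits binds, unfolds and feeds in the tagged proteins, and PSME activators can dock in its place. Interferon induces PSMB8, PSMB9 and PSMB10, which replace PSMB5, PSMB6 and PSMB7 in newly made cores to give the immunoproteasome, and also induces PSME1 and PSME2. In fat, proteasome activity is known for its role in the turnover of lipid-droplet and metabolic proteins.

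By role the 37 genes comprised 7 alpha-ring subunits, 4 beta-ring subunits without catalytic activity, the constitutive catalytic subunits PSMB5 and PSMB6, and the 3 immunoproteasome subunits. The regulatory particle was represented by 5 ATPases, 9 non-ATPase subunits and 2 assembly chaperones. There were 4 activators, and 1 gene, PSME3IP1, shares the prefix but encodes a partner of PSME3. PSMB7, PSMC1, PSMD1, PSMD4 and PSMD5 were not analysed here. In the text "core" means the 13 constitutive core subunits, and "regulatory particle" means the 16 PSMC and PSMD genes.

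The tissue was subcutaneous fat of 9 intact female beagles, aged 4 years and biopsied after an overnight fast. All ate Purina Pro Plan Performance Formula. Dogs 1, 3, 4 and 9 were controls fed to hold their body weight (n = 4), and dogs 2, 5, 6, 7 and 8 were allowed, once the week-0 biopsy had been taken, to eat as much as they wanted (ad libitum, n = 5). Each dog gave 1 array at weeks 0, 4, 8, 12 and 24. No allele, drug or other agent was named, and the 5 samples of a dog come from the same animal.

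Several arrays stood apart. All 13 adipocyte markers were above 4 on 45 of 45 arrays, among them ADIPOQ, with a mean of 15.52. Skeletal muscle transcripts were also present on 10 arrays, whose mean over 24 muscle markers was 7.8 to 14.64 against 3.58 to 5.38 on the other 35. At week 24 these were control dogs 3 and 4 and none of the 5 ad libitum dogs. At week 0 they were control dogs 1 and 3 and ad libitum dogs 5, 7 and 8, and later ad libitum dog 7 at weeks 8 and 12 and control dog 4 at week 8. Of 45 arrays, 43 resembled their own dog most in a profile of 100 probe sets. The week-8 array labelled dog 9 matched dog 5 and that labelled dog 5 matched dog 9, so the main week-8 counts are given with and without both.

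Batch and RNA quality were unevenly spread. Batches 1 to 5 mixed weeks 0 to 12, and batch 6 held all 9 week-24 arrays and nothing else. Feeding groups are therefore compared within 1 batch at week 24, while any change from week 0 to week 24 cannot be told apart from the change of batch. At week 4 the groups had no batch in common. The actin control, as its 3' value minus its 5' value on the log2 scale, is larger when RNA is more degraded. At week 24 it was 4.79 ± 1.20 (SD, n = 4) in controls and 3.51 ± 0.91 (SD, n = 5) in ad libitum dogs, against 1.74 to 3 in the group means of weeks 0 to 12.

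At week 24 subunits of the constitutive proteasome were higher under ad libitum feeding, while no immunoproteasome subunit and no activator passed the test. In bulk tissue fewer cells of a type and less RNA per cell cannot be told apart, here or in the results that follow. Of the 37 genes, 8 were higher and 0 lower in limma's moderated test at an adjusted p under 0.05, which is 21.6%, against 5.46% of the 22690 probe sets tested in either direction (3.76% higher, 1.69% lower). At an unadjusted p under 0.05 there were 22 of the 37 (59.5%), against 22.7% of all probe sets. The fitted difference was positive for 33 of 37, with a median of 0.43 against 0.01 over all probe sets. The 2 groups did not overlap for 14 of the 37 genes, always with the ad libitum dogs higher, against 5.41% of all probe sets (4.34% lower).

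**Figure D1:**
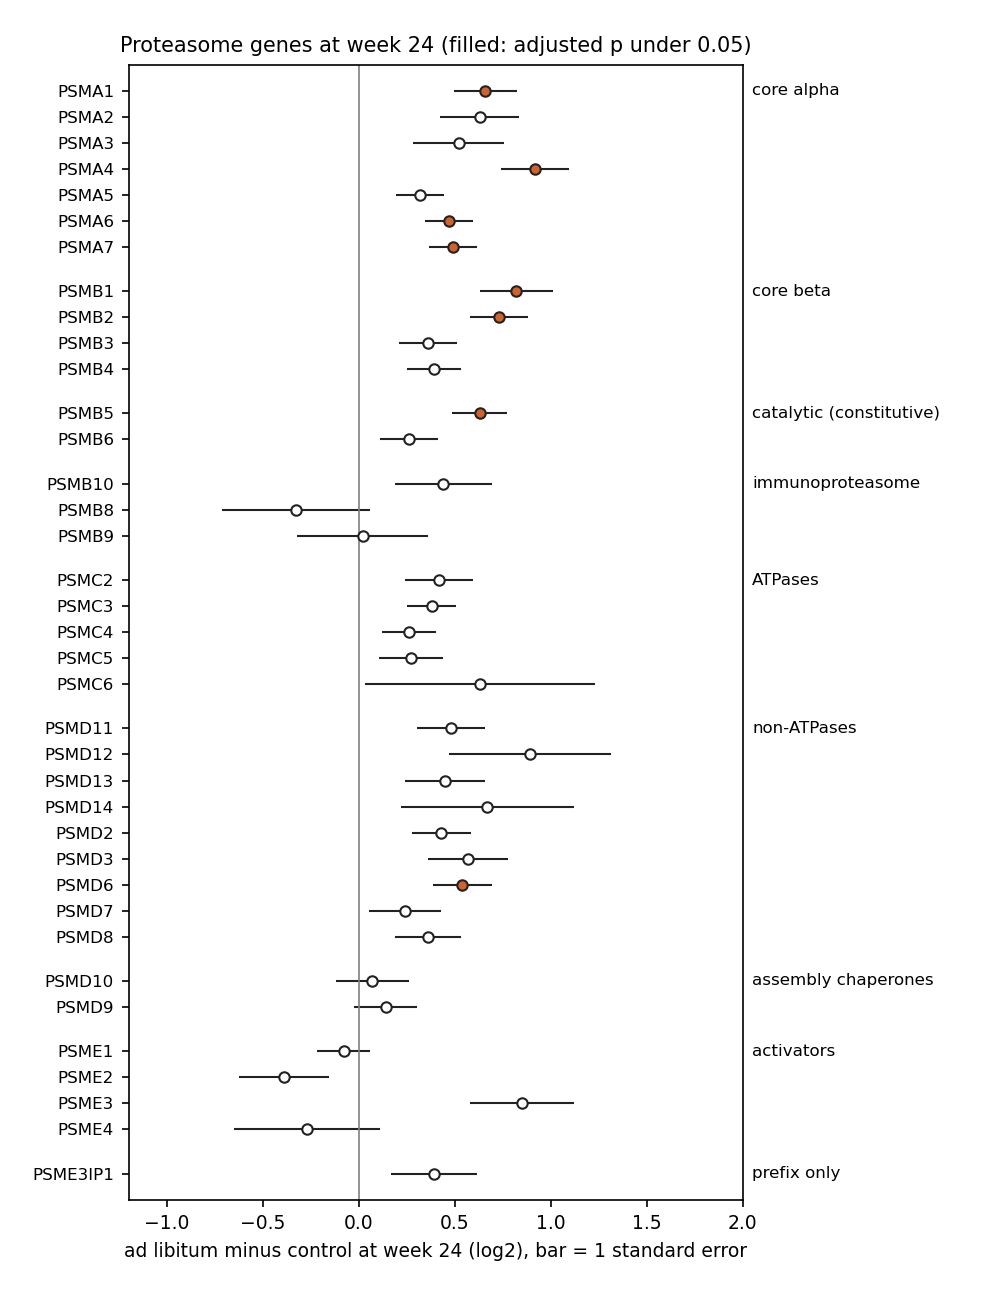
Difference between ad libitum (n = 5) and control dogs (n = 4) at week 24 for the 37 proteasome genes, grouped by role, on the log2 scale with its standard error; filled points passed an adjusted p under 0.05. All 13 core and all 16 regulatory particle genes lie to the right of 0, whereas PSMB8, PSME1, PSME2 and PSME4 lie to the left.

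The core carried most of the calls. All 13 constitutive core subunits had a positive difference at week 24, with a median of 0.52, and 7 passed the test. They were 4 of the 7 alpha-ring subunits (PSMA1, PSMA4, PSMA6 and PSMA7), 2 of the 4 beta-ring subunits without catalytic activity (PSMB1 and PSMB2), and PSMB5. The mean over the 13 genes was 12.10 ± 0.07 (SD, n = 4) in controls and 12.66 ± 0.21 (SD, n = 5) in ad libitum dogs. By dog it was 12.19, 12.07, 12.02 and 12.12 in control dogs 1, 3, 4 and 9, and 12.90, 12.32, 12.70, 12.64 and 12.73 in ad libitum dogs 2, 5, 6, 7 and 8. Every ad libitum dog was above every control dog, and dog 5 was the nearest to them.

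PSMA4, an alpha-ring subunit, showed the largest difference of the 37 genes. Its log2 values at week 24 were 11.14, 11.01, 11.15 and 11.20 in control dogs 1, 3, 4 and 9, and 12.32, 11.46, 12.25, 11.95 and 12.27 in ad libitum dogs 2, 5, 6, 7 and 8. The controls lay close together, and the groups did not overlap, with dog 5 the nearest to the controls. The PSMA4 difference was 0.92 on the log2 scale (SE 0.178, 1.89-fold, adjusted p = 0.00332, limma). It was also the only proteasome gene whose groups did not overlap at week 4, where the controls ran from 11.41 to 11.81 and the ad libitum dogs from 11.90 to 12.25 (of all probe sets 1.97% did so with the ad libitum dogs higher and 2.77% with them lower). That earlier difference did not pass the test. The groups had no batch in common at week 4, so in these values feeding cannot be told apart from batch.

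The other alpha-ring subunits had smaller differences. PSMA1 stood at 9.48, 9.76, 9.46 and 9.60 in the controls and at 10.41, 9.79, 10.27, 10.31 and 10.40 in the ad libitum dogs, in the same order of dogs. The gap was small, since dog 5 at 9.79 was only just above control dog 3, and the difference was 0.66 (SE 0.165, adjusted p = 0.016, limma). PSMA6 ran from 11.37 to 11.64 in controls and from 11.66 to 12.12 in ad libitum dogs, again with dog 5 the lowest of its group. The PSMA6 difference was 0.47 (SE 0.123, adjusted p = 0.0213, limma). PSMA7 (mean 14.63 over the 45 arrays) had groups that overlapped, with controls from 14.08 to 14.47 and ad libitum dogs from 14.34 to 14.99. It was higher by 0.49 (SE 0.125, adjusted p = 0.0188, limma). PSMA2 (0.63, adjusted p = 0.0661), PSMA3 (0.52, adjusted p = 0.186) and PSMA5 (0.32, adjusted p = 0.124) did not pass.

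In the beta rings, PSMB1 and PSMB2, structural subunits that have no catalytic activity in mammals, were both higher. PSMB1 was 11.24, 11.20, 11.26 and 11.56 in the controls and 12.72, 11.43, 12.30, 12.06 and 12.14 in the ad libitum dogs. Dog 5 at 11.43 fell below control dog 9 at 11.56, so the groups overlapped by that pair only, and the difference was 0.82 (SE 0.19, 1.76-fold, adjusted p = 0.0105, limma). PSMB2 was 11.81, 11.56, 11.29 and 11.63 in the controls and 12.71, 12.04, 12.20, 12.12 and 12.42 in the ad libitum dogs. These did not overlap, and PSMB2 was higher by 0.73 (SE 0.152, 1.65-fold, adjusted p = 0.00599, limma). PSMB3 (0.36, adjusted p = 0.146) and PSMB4 (0.39, adjusted p = 0.0887), the other structural beta subunits measured, did not pass.

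PSMB5 carries the chymotrypsin-like activity that drugs such as bortezomib block. Its values at week 24 were 13.32, 13.02, 13 and 12.86 in the controls and 13.95, 13.53, 13.68, 13.54 and 13.69 in the ad libitum dogs. The lowest ad libitum dog was above the highest control, and the difference was 0.63 (SE 0.142, 1.54-fold, adjusted p = 0.00932, limma). PSMB6, which carries the caspase-like activity, was 11.35, 11.21, 11.02 and 11.26 in the controls and 11.80, 11.03, 11.42, 11.40 and 11.70 in the ad libitum dogs. Dog 5 lay among the controls, and the PSMB6 difference of 0.26 (SE 0.151, adjusted p = 0.309, limma) did not pass.

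In the regulatory particle the differences at week 24 had the same sign, and 1 passed the test, a share (6.25%) near the 5.46% of all probe sets. All 16 genes were positive, with a median of 0.43. PSMD6 was the gene that passed, and 9 had an unadjusted p under 0.05 (56.2%, against 22.7% of all probe sets). PSMD6, a subunit of the lid that holds the tagged protein, was 11.70, 11.52, 11.80 and 11.74 in the controls and 12.49, 11.95, 12.16, 12.29 and 12.24 in the ad libitum dogs. Its groups did not overlap, and it was higher by 0.54 (SE 0.153, 1.45-fold, adjusted p = 0.0352, limma). Of the 5 ATPases, which unfold the substrate, 0 passed in limma and 2 had an unadjusted p under 0.05, with a median of 0.38. PSMC3, an ATPase of the base ring, did not overlap between groups, with controls from 12.16 to 12.32 and ad libitum dogs from 12.40 to 12.72. The PSMC3 difference was 0.38 (SE 0.128, adjusted p = 0.0715, limma). Another probe set of PSMC3, with a mean of 11.7, stood at 0.14 (adjusted p = 0.484, limma).

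Among the 9 non-ATPase subunits the median was 0.48. PSMD2, a scaffold of the base that receives ubiquitin-like carriers, stood at 0.43 (adjusted p = 0.0872) and the lid subunit PSMD11 at 0.48 (adjusted p = 0.098). PSMD3 stood at 0.57 (adjusted p = 0.0996). The assembly chaperones PSMD9 (0.14) and PSMD10 (0.07), which leave the particle before it is finished, had the smallest differences of the 16. The mean over the 16 genes was 10.75 ± 0.08 (SD, n = 4) in controls and 11.17 ± 0.21 (SD, n = 5) in ad libitum dogs. Control dogs 1, 3, 4 and 9 were at 10.81, 10.71, 10.66 and 10.82, and ad libitum dogs 2, 5, 6, 7 and 8 at 11.34, 10.82, 11.26, 11.20 and 11.25. The groups met at the 10.82 of dogs 9 and 5, and the other 4 ad libitum dogs were above every control.

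The 3 immunoproteasome subunits gave 0 calls at week 24 in limma, and 0 had an unadjusted p under 0.05. PSMB8, which replaces PSMB5, was 9.58, 9.29, 9.43 and 9.98 in the controls and 8.65, 10.42, 8.62, 8.85 and 9.67 in the ad libitum dogs. Dogs 2, 6 and 7 were below every control and dog 5 above every one, and the difference was -0.33 (SE 0.386, adjusted p = 0.652, limma). PSMB9, which replaces PSMB6, was 10.61, 10.56, 10.65 and 11.27 in the controls and 10.22, 11.62, 10.21, 10.60 and 11.28 in the ad libitum dogs, a difference of 0.02 (SE 0.342, adjusted p = 0.987, limma). PSMB10, which replaces PSMB7, was 8.81, 8.27, 8.86 and 9.14 in the controls and 9.92, 9.35, 8.6, 8.71 and 9.49 in the ad libitum dogs. Here dogs 2, 5 and 8 were above every control, and the difference was 0.44 (SE 0.253, adjusted p = 0.3, limma). Their standard errors of 0.253 to 0.386 were larger than those of PSMB5 (0.142) and PSMB6 (0.151), and whether the immunoproteasome differed from the core in its response was not tested.

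None of the 4 activators passed at week 24. PSME1 and PSME2 form the interferon-induced ring that widens the gate of the core. PSME1 was 12.65, 12.54, 13.04 and 13.08 in the controls and 12.62, 12.95, 12.70, 12.71 and 12.75 in the ad libitum dogs, so the ad libitum dogs lay inside the control range, and the difference was -0.08 (adjusted p = 0.782, limma). PSME2 was 10.23, 9.85, 10.10 and 10.45 in the controls and 9.40, 10.52, 9.55, 9.46 and 9.89 in the ad libitum dogs. Dogs 2, 6 and 7 were below every control and dog 5 above every one, as for PSMB8, and the difference was -0.39 (SE 0.235, adjusted p = 0.329, limma). PSME3, the nuclear activator, was 9.69, 9.19, 8.78 and 9.48 in the controls and 10.69, 9.51, 10.18, 10.09 and 10.22 in the ad libitum dogs, a difference of 0.85 (SE 0.271, 1.8-fold) that just missed the threshold (adjusted p = 0.0562, limma). PSME4, an activator of histone degradation, stood at -0.27 (adjusted p = 0.717), so 0 of 4 activators passed and 1 had an unadjusted p under 0.05.

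**Figure D2:**
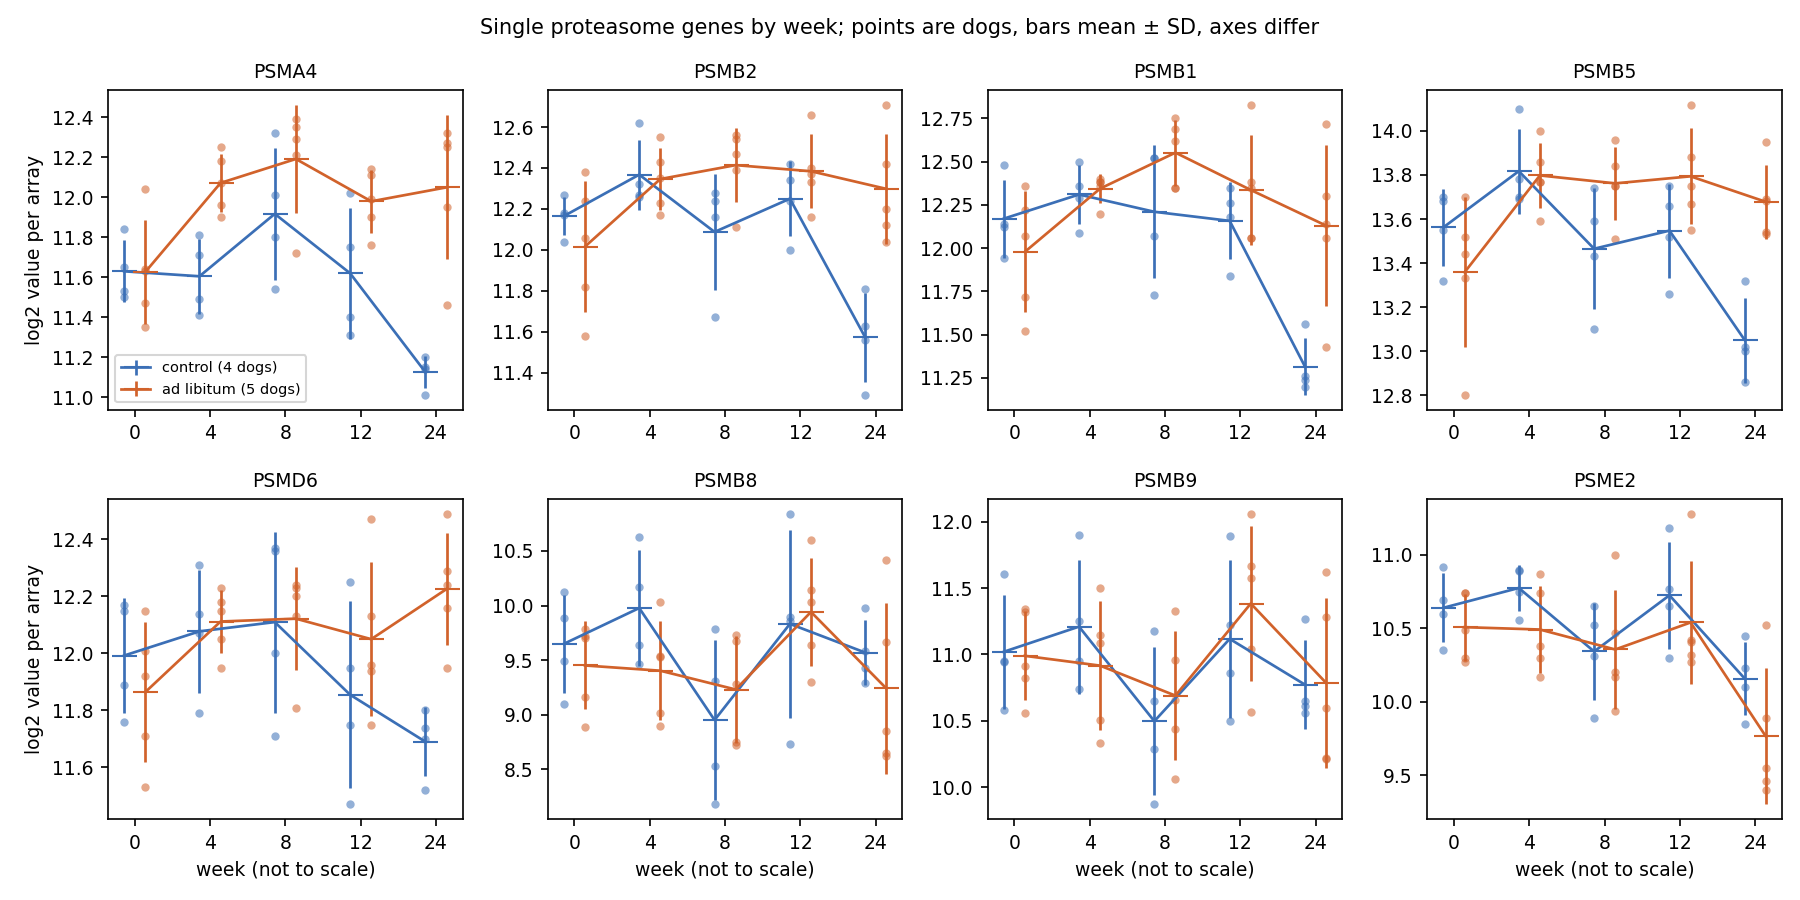
Log2 values of 8 proteasome genes by week, with 1 point per dog and the mean ± SD of the control (n = 4) and ad libitum dogs (n = 5); weeks are evenly spaced and not to scale. For PSMA4, PSMB2, PSMB1, PSMB5 and PSMD6 the control mean is at its lowest at week 24, while PSMB8 and PSMB9 spread widely within both groups. The SDs of PSME2 within a group and week (0.16 to 0.46) lie in the range of those of PSMB1 (0.08 to 0.47).

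Ad libitum dog 5 stood apart at week 24. It had the lowest value of its group for 8 of the 8 genes called, and the highest for PSMB8, PSMB9 and PSME2. On the same array the mean of 13 macrophage markers was 10.56 (8.41 to 9.9 in the other 8 dogs at week 24), that of 9 T and NK cell markers was 5.36 (3.61 to 4.59), and that of 17 interferon-response genes was 8.34 (6.38 to 7.22). Its adipocyte mean was 11.97, against 13.71 to 14.06 in the other ad libitum dogs and 11.75 to 12.99 in the controls. The part of these in the result was not tested. Without dog 5, 17 of the 37 genes passed at week 24, 16 higher and 1 lower, with a median of 0.49 against 0 over all probe sets. The share of all probe sets called without dog 5 is not given here. PSMA4 was then higher by 1.07 (adjusted p = 0.000277), PSMB1 by 0.99 and PSME3 by 1.01 (adjusted p = 0.0181), and the 1 lower gene was PSME2 (-0.58, adjusted p = 0.0385, limma). PSMB8 stood at -0.63 (adjusted p = 0.291) and PSMB9 at -0.19.

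The calls at week 24 changed with the arrays and covariates entered. Without the 10 arrays that carried muscle transcripts, which leaves control dogs 1 and 9 at week 24, 0 of 37 passed in limma and 14 had an unadjusted p under 0.05 (37.8%, against 14% of all probe sets), and the 13 core genes stayed positive with a median of 0.58. PSMA4 stood at 0.93 (adjusted p = 0.0867), PSMA1 at 0.71 (adjusted p = 0.0896) and PSMB5 at 0.58 (adjusted p = 0.111). With the muscle mean as a covariate 10 passed, with a median of 0.43 over the 37 genes against 0 over all probe sets. With the actin value as a covariate 0 passed in limma and 14 had an unadjusted p under 0.05. The core median was then 0.43, against 0.02 over all probe sets, and PSMA4 stood at 0.74 (adjusted p = 0.134). The shares of all probe sets past these limits are not given here for the fits with a covariate or without 1 dog. Leaving out 1 dog at a time gave 2 calls when that dog was dog 2 and 17 when it was dog 5. The fits that omitted dogs 3, 6 and 9 gave 5 calls each, and those that omitted dogs 4 and 7 gave 4 each. Without dog 1, 8 genes were called higher, and without dog 8, 6 were. PSMA4 and PSMB2 passed in 9 of these 9 fits.

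Markers of the tissue were read at the same week. All 13 adipocyte markers had a positive difference, with a median of 0.66, and 3 passed (5.46% of all probe sets called). All 24 muscle markers were negative (median -3.19), of which 0 passed in limma and 2 had an unadjusted p under 0.05. Of the 10 fibroblast markers 9 were negative (median -0.65), 0 passed and 5 had an unadjusted p under 0.05. EPCAM, an epithelial gene, read 13.86 in control dog 4, 3.34 to 3.64 in the other 3 controls and 2.99 to 3.6 in the 5 ad libitum dogs. Over the 45 arrays, 29 of the 37 proteasome genes were lower on the 10 arrays with muscle transcripts, with a median difference of -0.13 (12 of 13 core genes, median -0.14). The part of these markers in the proteasome result was not tested.

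Before week 24 no proteasome gene passed a comparison of the feeding groups. At week 0, 0 of 37 passed in limma (0% of all probe sets called) and 0 had an unadjusted p under 0.05 (1.38% of all probe sets), with a median difference of -0.04. At week 4, 0 passed (0.0132% of all called) and 3 were under the unadjusted limit, or 8.11% against 9.08% of all probe sets, with a median of 0.07. At week 12, 0 passed (0.00441% of all called) and 5 were under it, or 13.5% against 11.1%, with a median of 0.01. At week 8, 0 passed (1.42% of all called) and 12 had an unadjusted p under 0.05, or 32.4% against 25% of all probe sets. Of the 37, 28 were positive (75.7%, against 56.3% of all), with a median of 0.26 against 0.08. The core supplied 6 of those 12, with 11 of 13 positive and a median of 0.29. Without the week-8 arrays labelled dogs 5 and 9, 0 of 37 passed and 7 had an unadjusted p under 0.05 (18.9%, against 14.2% of all), with 31 positive and a median of 0.25, and the core supplied 3 of the 7.

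At week 8 the gene nearest the threshold from above was PSMB3, with 13.56, 13.17, 13.39 and 13.79 in the arrays labelled control dogs 1, 3, 4 and 9 and 14.04, 14.08, 14.10, 13.60 and 14.01 in those labelled ad libitum dogs 2, 5, 6, 7 and 8. All but dog 7 were above every control, and the difference was 0.51 (adjusted p = 0.06, limma). From below it was PSME4, with 9.87, 9.89, 10.91 and 9.57 in the controls and 8.62, 8.34, 7.82, 9.84 and 9.36 in the ad libitum dogs, a difference of -1.28 (adjusted p = 0.0597, limma). Without the arrays labelled dogs 5 and 9 these stood at 0.51 (adjusted p = 0.179) and -1.09 (adjusted p = 0.252). Without the arrays with muscle transcripts PSME4 passed (-1.38, adjusted p = 0.0183). PSMB3 and PSME4 were picked here after their values were seen.

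**Figure D3:**
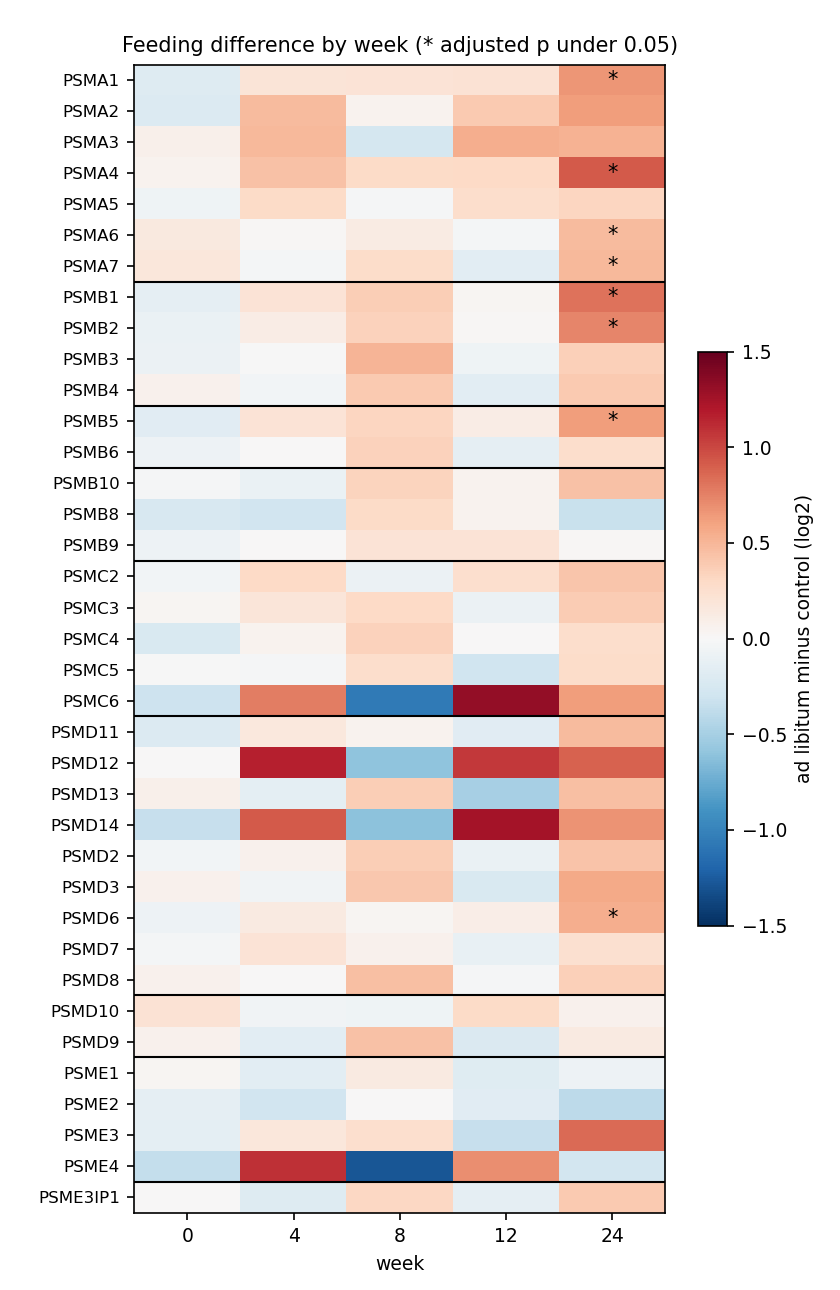
Log2 difference of ad libitum minus control dogs for the 37 proteasome genes (rows, by role) at each week (columns), red for higher and blue for lower in ad libitum dogs; asterisks mark an adjusted p under 0.05. The 8 asterisks are all at week 24, and PSMC6, PSMD12, PSMD14 and PSME4 turn from red at week 4 to blue at week 8 and back to red at week 12.

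Set against each dog's group at week 0, no feeding effect passed. A feeding effect takes the mean change since week 0 of the ad libitum dogs and subtracts the mean change of the controls. At week 24, 0 of 37 passed in limma (0.022% of all probe sets called) and 13 had an unadjusted p under 0.05, or 35.1% against 10.2% of all, with 33 of 37 positive and a median of 0.44. The core had 13 of 13 positive with a median of 0.46, among them PSMB5 (0.79, adjusted p = 0.181), PSMB2 (0.82, adjusted p = 0.196), PSMB1 (0.95, adjusted p = 0.23) and PSMA4 (0.88, adjusted p = 0.238). At week 8, 0 passed (0% of all called) and 4 had an unadjusted p under 0.05, or 10.8% against 8.66% of all, with a median of 0.27. At weeks 4 and 12, 0 passed (0% of all called at both), with 2 and 1 at an unadjusted p under 0.05, or 5.41% and 2.7% against 7.81% and 5.35% of all, and medians of 0.15 and 0.06. Averaged over weeks 4 to 24, 0 passed (0% of all called) and 7 had an unadjusted p under 0.05, or 18.9% against 4.23% of all, with 30 of 37 positive and a median of 0.24. Without the week-8 arrays labelled dogs 5 and 9 the week-8 effect gave 0 calls, 3 genes at an unadjusted p under 0.05 and a median of 0.22, and the averaged effect gave 0, 9 and 0.25.

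The averaged effect had the smallest unadjusted p for PSMB5 (0.48, SE 0.165) and PSMA1 (0.51, SE 0.191) in the core, and PSMA7 (-0.03) was negative. In the regulatory particle PSMC4, an ATPase, stood at 0.40 and PSMD14, the deubiquitinase of the lid, at 0.90, while PSMD10 (-0.16) and the lid subunit PSMD13 (-0.04) were negative. PSMB10 stood at 0.20, PSMB9 at 0.18 and PSMB8 at 0.17. Of the activators, PSME4 stood at 0.42, PSME3 at 0.38, PSME1 at -0.10 and PSME2 at -0.09. The adjusted p of each of these was 1. In the joint test of the 4 weekly effects 0 proteasome genes passed (0.0132% of all probe sets called), and PSME4 had the lowest adjusted p, 0.144 (limma).

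Between week 0 and week 24 proteasome genes fell in the control dogs, and their median change in the ad libitum dogs was 0.06. From week 0 to week 24, 12 of 37 genes fell in the control dogs and 0 rose, which is 32.4%, against 7.92% of all probe sets in either direction (3.21% higher, 4.71% lower). Of the 37, 32 had a negative change, with a median of -0.45 against 0.03 over all probe sets. The core mean of the controls was 12.57 ± 0.03 (SD, n = 4) at week 0 and 12.66, 12.60 and 12.52 at weeks 4, 8 and 12, before the 12.10 of week 24. The ad libitum dogs were at 12.49 ± 0.21 (SD, n = 5) at week 0, 12.75, 12.81 and 12.71 at weeks 4, 8 and 12, and 12.66 at week 24. The 4 lowest of the 45 core means were those of the 4 control arrays of week 24. All week-24 arrays are batch 6, so batch and week cannot be told apart in these changes.

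**Figure D4:**
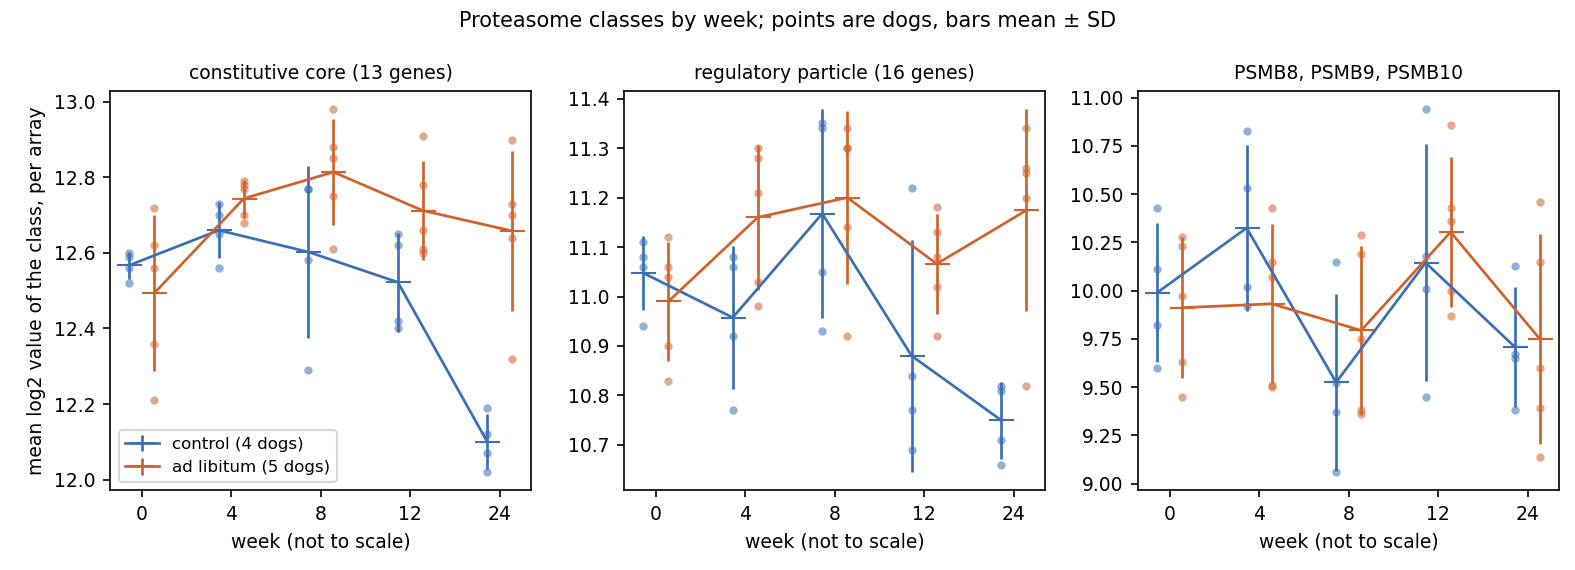
Mean log2 value per dog over the 13 constitutive core genes, the 16 regulatory particle genes and PSMB8, PSMB9 and PSMB10, by week, with the mean ± SD of control (n = 4) and ad libitum dogs (n = 5); weeks are evenly spaced and not to scale. The control group mean of the core drops from 12.52 at week 12 to 12.10 at week 24. The ad libitum group mean stays at 12.66 or above from week 4 on, although single dogs are lower, down to 12.32 at week 24. The immunoproteasome values of the groups overlap at every week.

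Of the 12 genes that fell in the controls, 7 were in the core and 3 in the regulatory particle. PSMB1 went from 12.12, 12.48, 12.14 and 11.94 in dogs 1, 3, 4 and 9 at week 0 to 11.24, 11.20, 11.26 and 11.56 at week 24, and fell by 0.80 in the fit (adjusted p = 0.0126, limma). PSMA1 fell by 0.69 (adjusted p = 0.0135), from 10.10 to 10.38 at week 0 down to 9.46 to 9.76. PSMB6 went from 11.77 to 11.89 down to 11.02 to 11.35 and fell by 0.60 (adjusted p = 0.0169), which leaves it among the genes that fell in controls though not among those that differed at week 24. The other core genes were PSMB2 (-0.56), PSMB3 (-0.54), PSMB5 (-0.47, adjusted p = 0.0485) and PSMA6 (-0.42). In the regulatory particle these were PSMD11 (-0.70, adjusted p = 0.0162), the lid subunit PSMD8 (-0.62) and PSMC3 (-0.48). PSME3 fell by 0.97 (adjusted p = 0.0327), from 10.20, 10.78, 10.28 and 9.99 to 9.69, 9.19, 8.78 and 9.48, and its partner PSME3IP1 fell by 0.81 (adjusted p = 0.0307).

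In all, 23 of the 37 genes were lower at week 24 than at week 0 in 4 of 4 control dogs, the 12 called and 11 others. The share of all probe sets lower in 4 of 4 control dogs was not counted, so the 23 cannot be set against the whole array. The 12 called shared 5 with the 8 genes higher at week 24, which is 62.5% of the 8 and 41.7% of the 12. Both comparisons use the same control arrays of week 24. Leaving out control dog 3 or 9 reduced the count of 12 to 0, leaving out dog 4 reduced it to 4, and leaving out dog 1 or 6 reduced it to 6. It was also 0 without the arrays with muscle transcripts (PSMB1 -0.62, PSMA1 -0.86 with an adjusted p of 0.165) and 0 with the actin value as a covariate. At weeks 4, 8 and 12 the controls gave 0 calls against week 0 in limma (0.00441%, 0% and 0% of all probe sets called). At an unadjusted p under 0.05 there were 6, 0 and 5 genes, or 16.2%, 0% and 13.5%, below the 24.1%, 1.42% and 17.8% of all probe sets.

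In the ad libitum dogs a few genes passed the test of change since week 0. From week 0 to week 8, 4 of 37 genes rose (6.73% of all probe sets called, 2.9% higher and 3.83% lower), with 27 positive and a median of 0.28, and 12 of 13 core genes were positive with a median of 0.39. PSMB1 was 11.72, 11.52, 12.22, 12.07 and 12.36 in dogs 2, 5, 6, 7 and 8 at week 0 and 12.69, 12.35, 12.62, 12.35 and 12.75 in the arrays so labelled at week 8, and rose by 0.63 (adjusted p = 0.0411, limma). PSMB5 rose by 0.47 (adjusted p = 0.0414), PSMC4 by 0.50 (adjusted p = 0.0331) and PSMD2 by 0.51 (adjusted p = 0.0422). PSMC4 ran from 10.87 to 11.61 at week 0 and from 11.49 to 11.80 at week 8, and PSMD2 from 10.73 to 11.71 and from 11.48 to 11.82, so the ranges overlapped. This count was fragile. Only 1 gene passed without the week-8 arrays labelled dogs 5 and 9 (29 positive, median 0.32), 0 passed without any 1 of dogs 2, 4, 5, 6, 7 and 9, 1 without dog 3, and 15 without dog 8. From week 0 to week 4, 0 passed (0.498% of all called) and 9 had an unadjusted p under 0.05, or 24.3% against 9.63% of all, with a median of 0.24. To week 12, 0 passed (0.802% of all called) and 3 had an unadjusted p under 0.05, or 8.11% against 13.5% of all, with a median of 0.14.

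From week 0 to week 24 the ad libitum dogs gave 1 call in 37 genes, a share near the 2.4% of all probe sets called lower (4.78% called in either direction, 2.38% higher). The gene was the activator PSME2, which fell. It went from 10.27, 10.49, 10.74, 10.30 and 10.74 in dogs 2, 5, 6, 7 and 8 to 9.40, 10.52, 9.55, 9.46 and 9.89. All dogs but dog 5 were lower at week 24 than any had been at week 0, and the change was -0.76 (SE 0.226, adjusted p = 0.045, limma). The controls changed in the same direction in 4 of 4 dogs, from a mean of 10.64 to 10.16. Without dog 5 the fall in ad libitum dogs was 0.97 (adjusted p = 0.00719), and with the muscle mean as a covariate the change was -0.93 (adjusted p = 0.0178). No gene passed with no filter, without the arrays with muscle transcripts, with the actin value as a covariate, or without dog 2, 3, 6, 7, 8 or 9. No immunoproteasome subunit passed (median change -0.13), and the core median was 0.16 with 9 of 13 positive.

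The immunoproteasome genes varied widely within both feeding groups. Their mean over PSMB8, PSMB9 and PSMB10 was 9.99 ± 0.36 (SD, n = 4) in controls and 9.91 ± 0.36 (SD, n = 5) in ad libitum dogs at week 0, 10.14 and 10.30 at week 12, and 9.71 ± 0.31 and 9.75 ± 0.55 at week 24. Control means ran from 9.53 at week 8 to 10.32 at week 4. The 3 highest arrays were control dog 9 at week 12 (10.94), ad libitum dog 5 at week 12 (10.86) and control dog 3 at week 4 (10.83). On those arrays the mean of the 9 T and NK cell markers was 7.65, 6.75 and 5.88, against a median of 4.57 over the 45 arrays. That list had 14 genes, of which 9 were measured. Of the CD3 genes, which define T cells, CD3D was above 4 on 40 arrays and CD3E and CD3G on 4 each. CD2 and CCL5 were above 4 on 45 arrays, CD4 on 43, NKG7 on 39, LCK on 19 and GZMB on 13. The part of these markers was not tested. The 2 lowest were control dog 4 at week 8 (9.06) and ad libitum dog 6 at week 24 (9.14).

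PSMB8 illustrates this spread. Its control means were 9.65, 9.98, 8.95, 9.83 and 9.57 at weeks 0, 4, 8, 12 and 24, and its ad libitum means were 9.45, 9.40, 9.23, 9.94 and 9.24, with SDs from 0.30 to 0.86. At week 12 it read 10.84 in control dog 9 and 10.60 in ad libitum dog 5, the highest of their groups, where PSMB9 read 11.89 and 12.06 and PSME2 read 11.18 and 11.28. PSMB9 had its highest group mean in the ad libitum dogs of week 12 (11.38), and PSMB10 means lay between 8.77 and 9.79. At no week did the feeding difference of any of the 3 genes pass the test. By comparison the group means of PSMB5 ran from 13.05 to 13.82, and only the controls of week 24 were below 13.36, while those of PSME1 ran from 12.75 to 13.18 with no week apart.

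PSMC6, PSMD14, PSMD12 and PSME4 had the highest SDs over the 45 arrays, and their fitted differences between feeding groups did not keep 1 sign over the weeks, although none passed. PSMC6, an ATPase, had an SD of 0.99, PSMD14 0.81, the lid subunit PSMD12 0.78 and the activator PSME4 0.76. PSMB8 followed with 0.6 and PSMB9 with 0.52, and PSMA5 had the lowest, 0.19. PSMC6, PSMD14, PSMD12 and PSME4 were singled out after their values were seen. PSMD14 was 10.62, 9.51, 9.51 and 10.43 in control dogs 1, 3, 4 and 9 at week 4 and 11.62, 9.92, 9.42, 10.64 and 11.63 in ad libitum dogs 2, 5, 6, 7 and 8. At week 12 the controls were at 11.25, 8.58, 9.67 and 9.69 and the ad libitum dogs at 10.66, 11.25, 10.99, 10.70 and 11.64, so only control dog 1 reached the ad libitum range.

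The fitted difference of PSMD14 was 0.92 at week 4, -0.61 at week 8 and 1.25 at week 12, and that of PSMC6 was 0.77, -1.06 and 1.32. PSMD12 stood at 1.17, -0.60 and 1.06, and PSME4 at 1.10, -1.28 and 0.70, and none of the 12 values passed. Without the week-8 arrays labelled dogs 5 and 9 the week-8 values of PSMD12 and PSMD14 were 0.04 and -0.01, and that of PSMC6 was -0.39. The actin value also differed by group and week, at 3.00 ± 0.27 (SD, n = 4) in controls and 1.75 ± 0.24 (SD, n = 5) in ad libitum dogs at week 4, 2.39 and 1.74 at week 8, and 1.94 and 2.50 at week 12. Its part in this pattern was not tested. At week 24, where the spread was smaller, PSMD12 ran from 8.6 to 8.91 in controls and from 9.09 to 9.84 in ad libitum dogs, a difference of 0.89 (SE 0.422, adjusted p = 0.205, limma) without overlap.

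Some genes were read by several probe sets of the array. The 23 proteasome genes with another tested probe set had 31 of these, and 27 of the 31 had the same sign at week 24 as the probe set used. PSMA4 and PSMB5 passed again on another probe set (0.71, adjusted p = 0.00798, and 0.88, adjusted p = 0.0134). The second probe set of PSMB8 stood at -0.08, that of PSMC6 at 0.03 against 0.63, and the others of PSME4 at 0.23 and 0.00 against -0.27. PSMD11 (-0.09 against 0.48) and PSME3IP1 (-0.02 against 0.39), both among the genes that fell in controls, also had another probe set of opposite sign. That of PSMD11 had a mean of 5.76, against 11.41 for the probe set used. That of PSME3IP1 had a mean of 3.8, under the limit of 4, and the third probe set of this gene (mean 8.18) stood at 0.38. Of the 37 probe sets used, 27 carry the suffix s_at and 1, that of PSMA1, x_at, which mark probes that may match related transcripts, so these values can include signal from similar genes.

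Other genes of the ubiquitin and proteasome pathway were read from lists at week 24. Of the 8 core assembly factors 6 were measured, and all 6 were positive (median 0.37). In limma 0 passed and 3 had an unadjusted p under 0.05, with the inhibitor PSMF1 at 0.65 (adjusted p = 0.126) and the chaperone PSMG1 at 0.58 (adjusted p = 0.0953). Of the 20 proteasome receptors, deubiquitinases and cofactors 15 were measured, 14 of them positive (median 0.36), and 2 were higher, where 5.46% of all probe sets were called and 3.76% were higher. These were UFD1, a partner of the VCP unfoldase (1.00, adjusted p = 0.00925), and SEM1, a small subunit of the lid (0.36, adjusted p = 0.0471). ZFAND5, which binds ubiquitin and activates the proteasome, was the only negative one (-0.52, adjusted p = 0.341).

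Of 13 genes of ubiquitin itself and its upstream enzymes 11 were measured, 6 positive and 5 negative (median 0.02), and 1 was higher, the conjugating enzyme UBE2L3 (0.65, adjusted p = 0.00321), a share near that of all probe sets. UBE2K, another conjugating enzyme, stood at 0.65 (adjusted p = 0.0984), UBE2R2 at -0.23 and the activating enzyme UBA1 at -0.24. Of 7 genes that control subunit transcription 5 were measured, 0 positive (median -0.13), and 0 passed in limma or at an unadjusted p under 0.05. DDI2, the protease that activates the proteasome regulator NFE2L1, stood at -0.52, and NFYA at -0.42. NFE2L1 itself stood at -0.12.

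Genes of class I antigen presentation, which use the peptides that proteasomes cut, gave 1 call in 12 measured of 15, near the 5.46% of all probe sets, with 3 positive and a median of -0.19. ERAP1, which trims the peptides, was higher (1.21, adjusted p = 0.0452), while the peptide transporter TAP1 stood at -0.55 (adjusted p = 0.214) and the chaperones CANX and CALR at 0.40 and -0.25. In the RefSeq gene order of the dog, PSMB8 lies between TAP2 and TAP1 and PSMB9 between TAP1 and DLA-DMB, and PSME1 and PSME2 flank EMC9. Of 29 interferon-response genes 17 were measured, 11 positive (median 0.25), with 0 passing in limma and 1 at an unadjusted p under 0.05. Among them IFI44 stood at 1.56, OAS1 at 0.97, IRF9 at -0.30 and IFI6 at -0.47. Of 4 ubiquitin ligases of muscle atrophy 3 were measured and 0 passed, or reached an unadjusted p under 0.05, with FBXO32 at -1.5, TRIM63 at -0.73 and FBXO30 at 1.12.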

How the data were processed

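Total RNA of each biopsy was extracted with Trizol, labelled with biotin by the one-cycle 3' method and hybridised to Affymetrix canine arrays, per the labels' protocols, and each dog has 1 array per week. The deposited log2 values were made by the authors with GCRMA, which corrects background, normalizes between arrays and summarises each probe set, per the submitters' processing notes, where no version stands. That the scale is log2 was read from the range of the values, 0.42 to 17.51, and from the medians of the arrays, 3.6 to 3.83. Whether the authors filtered probe sets or corrected for batch is not given in the sources used. Arrays carry no counts, so their number limits the precision.

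Of 42924 probe sets that were not controls, 22690 (52.9%) stood above log2 4 on at least 4 of 45 arrays and were tested, 16915 of them with 1 symbol. Symbols came from the platform table. The dog RefSeq table (UU_Cfam_GSD_1.0) held 33 of the 37 genes, and 33 had the same symbol there. It was used for names and neighbours only.

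All arrays entered 1 limma fit (limma 3.58.1, statmod 1.5.0, R 4.3.3). The fit had 10 means, 1 per feeding group and week, a term for batches 1 to 5 coded to sum to 0, and the dog as a block. The same dog number marks the same animal at every week, and the common correlation within a dog was 0.00562. Residual degrees of freedom numbered 31. The adjusted p-values come from limma's moderated test after Benjamini-Hochberg over all tested probe sets, with a threshold of 0.05. The code was tested on simulated data.

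The proteasome genes and the other lists were chosen with earlier results of these data known. Named are PSMB8, PSMB9, PSMB10, PSMB5, PSMB6, PSME1, PSME2, every gene past the threshold in a comparison of feeding, and, per class and sign, the 2 genes of smallest p at week 24 and in the averaged effect. Further genes are given with their class, or are said to have been picked after their values were seen. Of the other lists, those past the threshold are named, and for each sign the 2 of smallest p at week 24. An array was said to carry muscle transcripts when the mean of its muscle markers was above 7. Alternatives changed the batch term, the dog block, the filter, the scaling, the probe set used, the prior, the covariates and the arrays entered, or left out each dog in turn.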

Additional observations from a re-analysis of the deposited data

Results flagged for a closer look

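Dixon's test was applied in each feeding group and week to the 8 genes called at week 24 and to PSMB6, PSMB8, PSMB9, PSMB10, PSME1 and PSME2. It was also applied to the core, regulatory particle and immunoproteasome means, and not to the other genes named. Of 170 groups, 12 held a dog whose value stood apart. Chance flags about 1 in 20 groups. The test of opposite movement found 0 of 148 combinations of gene and week in which all dogs of one feeding group moved one way and all dogs of the other the opposite way.

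Ad libitum dog 5, by its label, was the dog that stood apart in 7 of the 12. At week 24 it was low for PSMA1 (9.79, others 10.27 to 10.41), for PSMA6 (11.66, others 12.03 to 12.12) and for the regulatory particle mean (10.82, others 11.2 to 11.34). The array so labelled at week 8, which resembled dog 9, was low for PSMA4 (11.72, others 12.21 to 12.39) and PSMD6 (11.81, others 12.13 to 12.24). At week 4 dog 5 was low for PSMB1 (12.2, others 12.36 to 12.4), and at week 12 it was high for PSME2 (11.28, others 10.27 to 10.42).

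Control dog 9 stood apart in 3 groups, high at week 24 for PSMB1 (11.56, others 11.2 to 11.26) and PSMB9 (11.27, others 10.56 to 10.65) and low at week 0 for PSME1 (12.72, others 13.02 to 13.04). Control dog 4 was high for PSMB2 at week 4 (12.62, others 12.26 to 12.32), and control dog 3 was low for PSMB6 at week 8 (11.5, others 11.83 to 11.87).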

How the results depend on the processing

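Of 430 counts of calls under an alternative, 371 stayed within 1.5 times the count reported. Most of these were counts of 0 that stayed at 0, which were scored as unchanged. For the week-24 difference 12 counts stayed, 9 were lower and 1 was higher. For the control change to week 24, 14 stayed and 9 were lower. For the ad libitum change to week 8, 7 stayed, 13 were lower and 3 higher, and for that to week 24, 12 stayed, 9 were lower and 2 higher. Of the uncalled genes followed through the same alternatives at week 24, PSMB9 kept its sign in 13 of 22 (-0.2 to 0.18) and PSME1 in 20 of 22. Of the 8 genes called at week 24, all kept their sign in 22 of 22 alternatives, and PSMA4 and PSMB2 passed in 19, PSMB1 in 18, PSMB5 in 17, PSMA1 in 16, PSMA6 in 13, PSMA7 in 12 and PSMD6 in 11. The count of 8 was 0 without the arrays with muscle transcripts, 0 with the actin covariate and 0 with only the week-24 arrays fitted. The first and the last of these leave fewer arrays. For the 12 genes that fell in controls by week 24 it was 7 with arrays centred on their medians, and 0 without the muscle arrays, with the actin covariate, or with only the weeks compared. For the 4 genes that rose in ad libitum dogs by week 8 it was 10 without a batch term, 8 with arrays centred, 1 with no filter, 1 without the muscle arrays, 1 without the week-8 arrays labelled dogs 5 and 9, 0 with the actin covariate and 0 with only the weeks compared. With the dog as a fixed replicate block, which cannot estimate a difference within a week, that count was 1. Leaving out the replicate block altogether moved no count of calls by over 1.5 times. For the ad libitum change to week 24 the count of 1 was 0 with no filter, 0 without the muscle arrays, 0 with the actin covariate and 2 without those week-8 arrays. The muscle arrays left out gave 1 for the week-8 difference and 1 for the joint test, and the robust prior gave 1 for the ad libitum change to week 4. The cause of these shifts was not tested. Leaving out each dog in turn gave 2 to 17 for the week-24 difference, 0 to 4 for that of week 8, 0 to 3 and 0 to 1 for the feeding effects at weeks 8 and 24, and 0 to 5 for the joint test. For the ad libitum changes to weeks 4, 8, 12 and 24 it gave 0 to 5, 0 to 15, 0 to 1 and 0 to 2. For the control changes to weeks 4, 12 and 24 it gave 0 to 2, 0 to 6 and 0 to 14, and it gave 0 to 0 for the remaining comparisons. All 37 genes stood above 4 on every array. The groups held 4 and 5 dogs, and 2 controls were free of muscle transcripts at week 24. Whether signal or the number of dogs limited the counts was not tested. Centring the arrays moved the median of all probe sets at week 24 from 0.01 to -0.04.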
